A study of Mus musculus and Rattus norvegicus with 30 samples.

Results

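The 10 genes described here control how much transforming growth factor beta (TGF-beta) is made, stored and acted on. They are the 3 ligands Tgfb1, Tgfb2 and Tgfb3, the 4 latent TGF-beta binding proteins Ltbp1, Ltbp2, Ltbp3 and Ltbp4, and 3 brakes on the signal, Smad7, Smurf2 and Htra1. They were taken by gene symbol, and all 10 were found among 32545 genes of the rat table and among 54307 genes of the mouse tables. All 10 passed the filter on low counts in both species.

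TGF-beta is secreted as a latent complex in which the ligand is held by its own propeptide, and the propeptide is usually tied to a latent binding protein in the extracellular matrix. Integrins, thrombospondin and proteases can free the ligand, which then acts through a pair of receptor kinases and the transcription factors SMAD2 and SMAD3. In the pressure-loaded heart this pathway is known for its part in fibroblast activation and matrix deposition.

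Messenger RNA was sequenced in 2 settings to ask how agonists of the estrogen-related receptors (ERR, orphan nuclear receptors that drive genes of mitochondrial energy metabolism) act in heart muscle. In the first setting, ventricular myocytes isolated from rat pups at postnatal day 3 (NRVM) were transfected with siRNA at a typical concentration of 25 nM and given the agonist 915 at 10 µM, or its solvent DMSO, for 24 hours. In the second, wild-type mice had transverse aortic constriction (TAC, a narrowing of the aorta that overloads the left ventricle with pressure) or a sham operation, and left ventricle RNA was taken. The agonist 332 was injected into the peritoneum for 6 weeks after surgery.

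The rat groups were scramble siRNA with DMSO, scramble siRNA with 915, siRNA against both ERRalpha and ERRgamma with DMSO, and the same double knockdown with 915, with 3 libraries each. All of the rat cultures had been pre-plated to remove fibroblasts and grown with bromodeoxyuridine, and the labels do not say whether replicates came from separate isolations, so p-values measure the spread between these libraries, which may be technical. The mouse groups were sham with vehicle (3 hearts), sham with 332 (5 hearts), TAC with vehicle (5 hearts) and TAC with 332 (5 hearts). Mouse strain, age and the dose of 332 are not given in the labels. The deposited file names place mouse replicates 1 to 3 in one sequencing set and replicates 4 and 5 in another, so that sham vehicle hearts are in the first set alone.

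Total counts ranged from 12013379 to 18315341 over the rat libraries and from 11375894 to 16599899 over the mouse libraries. Levels below are CPM, a gene's counts relative to its library's total, with totals adjusted by edgeR's TMM factors. In rat, Esrra fell from 169 to 199 CPM with scramble DMSO to 14.0 to 21.9 CPM in knockdown DMSO libraries, and Esrrg from 130 to 131 CPM to 17.5 to 18.7 CPM. The summed level of 7 cardiomyocyte markers was 15055 to 16590 CPM in scramble DMSO cultures and 9234 to 9623 CPM in knockdown DMSO cultures, and none of the 7 was at 0. The summed level of 8 fibroblast markers was 9890 to 10512 CPM in the same scramble DMSO cultures, so transcripts used as fibroblast markers were abundant in cultures labelled as cardiomyocytes. Which cells made these transcripts was not tested. In bulk samples, fewer cells of a type and less RNA per cell cannot be told apart.

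Mouse promoters of 2 genes are shown. The first is that of Tgfb2, a ligand that fell with 915 in rat scramble cells and rose with TAC in vehicle-treated mice. Tgfb1 and Tgfb3 also changed in these directions. The others are those of the upstream and downstream start sites of Ltbp1, whose transcripts are compared below in the TAC hearts. Each stretch shown is the 250 bases before a RefSeq start in build GRCm38.p6, read 5′ to 3′ on the gene's strand. Capitals mark the SMAD box CAGACA or its reverse complement TGTCTG. The Tgfb2 stretch is chr1:186705990-186706239 (minus strand), the upstream Ltbp1 stretch chr17:75005279-75005528 (plus strand) and the downstream one chr17:75178531-75178780 (plus strand).
Tgfb2: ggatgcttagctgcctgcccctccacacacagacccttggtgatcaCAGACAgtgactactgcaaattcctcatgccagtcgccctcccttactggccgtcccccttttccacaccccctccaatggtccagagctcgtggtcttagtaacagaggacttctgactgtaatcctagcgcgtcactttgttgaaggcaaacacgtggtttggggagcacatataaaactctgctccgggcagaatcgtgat
Ltbp1 upstream: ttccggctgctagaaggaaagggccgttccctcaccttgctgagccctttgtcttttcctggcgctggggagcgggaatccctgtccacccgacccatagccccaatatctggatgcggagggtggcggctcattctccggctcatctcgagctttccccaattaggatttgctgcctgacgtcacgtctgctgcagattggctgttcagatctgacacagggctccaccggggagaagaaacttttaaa
Ltbp1 downstream: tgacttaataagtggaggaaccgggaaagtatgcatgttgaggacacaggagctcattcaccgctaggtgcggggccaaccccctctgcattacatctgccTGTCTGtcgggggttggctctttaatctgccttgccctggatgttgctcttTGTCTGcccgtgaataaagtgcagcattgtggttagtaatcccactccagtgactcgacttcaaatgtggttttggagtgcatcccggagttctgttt

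The Tgfb2 stretch held 1 SMAD box, which begins 204 bases before the start. The downstream Ltbp1 stretch held 2, on the opposite strand, at 149 and 98 bases before the RefSeq start, and the upstream Ltbp1 stretch held none. RefSeq promoters were matched for 8 of the 10 genes, in 11 windows of 300 bases that also take in the first 50 bases of the gene. Smurf2 had 1 SMAD box within the first 50 bases of the gene, and Ltbp3 had 1 that begins at the last base before the start and runs across it. The Tgfb1 window held no SMAD box, and Tgfb3 was not among the matched genes. Over 32851 mouse promoters of the same length, 21.04% held a SMAD box on either strand. The ERR half-site AAGGTCA, or its reverse complement, was in 4.72% of promoters and in none of these 11 windows. The search says only whether these letters stand in these windows.

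Several of the genes lie on the same chromosome in both species. Tgfb3 and Ltbp2 are on rat chromosome 6 (109913757 to 109935533 and 108500112 to 108596569, both minus strand, rn6) and on mouse chromosome 12 (86056745 to 86079041 and 84783212 to 84876532, both minus strand, GRCm38). Tgfb1 and Ltbp4 are on rat chromosome 1 (82480195 to 82497199, plus, and 84118046 to 84150084, minus) and on mouse chromosome 7 (25687002 to 25705077, plus, and 27305136 to 27337692, minus). Htra1 shares those chromosomes, at 201499028 to 201548513 in rat and 130936111 to 130985660 in mouse. Tgfb2 is on rat chromosome 13 (105039853 to 105141030, minus) and mouse chromosome 1 (186622792 to 186705989, minus), and Smurf2 on rat chromosome 10 (95018059 to 95062987, minus) and mouse chromosome 11 (106820066 to 106920715, minus).

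Levels were ordered with the deposited length-scaled values. In scramble DMSO cultures Ltbp2 (165 ± 10.3 FPKM, SD, n = 3) and Tgfb3 (152 ± 8.78 FPKM) were the most abundant of the 10 genes, and their ranges overlapped. Ltbp3 (87.6 ± 1.95 FPKM), Htra1 (78.6 ± 4.24 FPKM), Smurf2 (47.7 ± 0.235 FPKM), Smad7 (39.6 ± 1.86 FPKM) and Tgfb2 (37.2 ± 2.41 FPKM) followed, and of these neighbours the ranges of Smad7 and Tgfb2 overlapped. Tgfb1 (25.6 ± 1.11 FPKM) and Ltbp1 (24.5 ± 1.48 FPKM) overlapped each other, and Ltbp4 was lowest at 10.6 ± 1.77 FPKM.

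The order in the heart was different. In sham vehicle hearts, over protein-coding transcripts, Ltbp4 was highest at 15.7 ± 1.19 TPM (SD, n = 3) and Ltbp2 lowest at 0.0776 ± 0.0224 TPM, and neither range overlapped that of its neighbour in the order. Between them stood Ltbp1 (3.00 ± 0.101 TPM), Htra1 (2.97 ± 1.06 TPM) and Smurf2 (1.45 ± 0.293 TPM). The remaining 5 genes, Tgfb1, Ltbp3, Tgfb3, Smad7 and Tgfb2, had means of 0.610 to 1.07 TPM, and neighbours among these 5 had overlapping ranges. Protein-coding transcripts include short ones whose TPM is high for few counts, and without those under 1000 bases, an alternative chosen after the data were seen, Ltbp3 went from 0.969 to 0.413 TPM in sham vehicle hearts, to the ninth place of 10. Over all transcripts, which the CPM values count, Htra1 stood first in sham vehicle hearts at 22.1 ± 1.75 TPM. Ltbp4 stood second on that basis at 21.7 ± 2.70 TPM, with a range that overlapped that of Htra1, and Ltbp2 was again lowest. The rat and mouse values were scaled separately, so only the orders within a species are comparable.

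**Figure D1:**
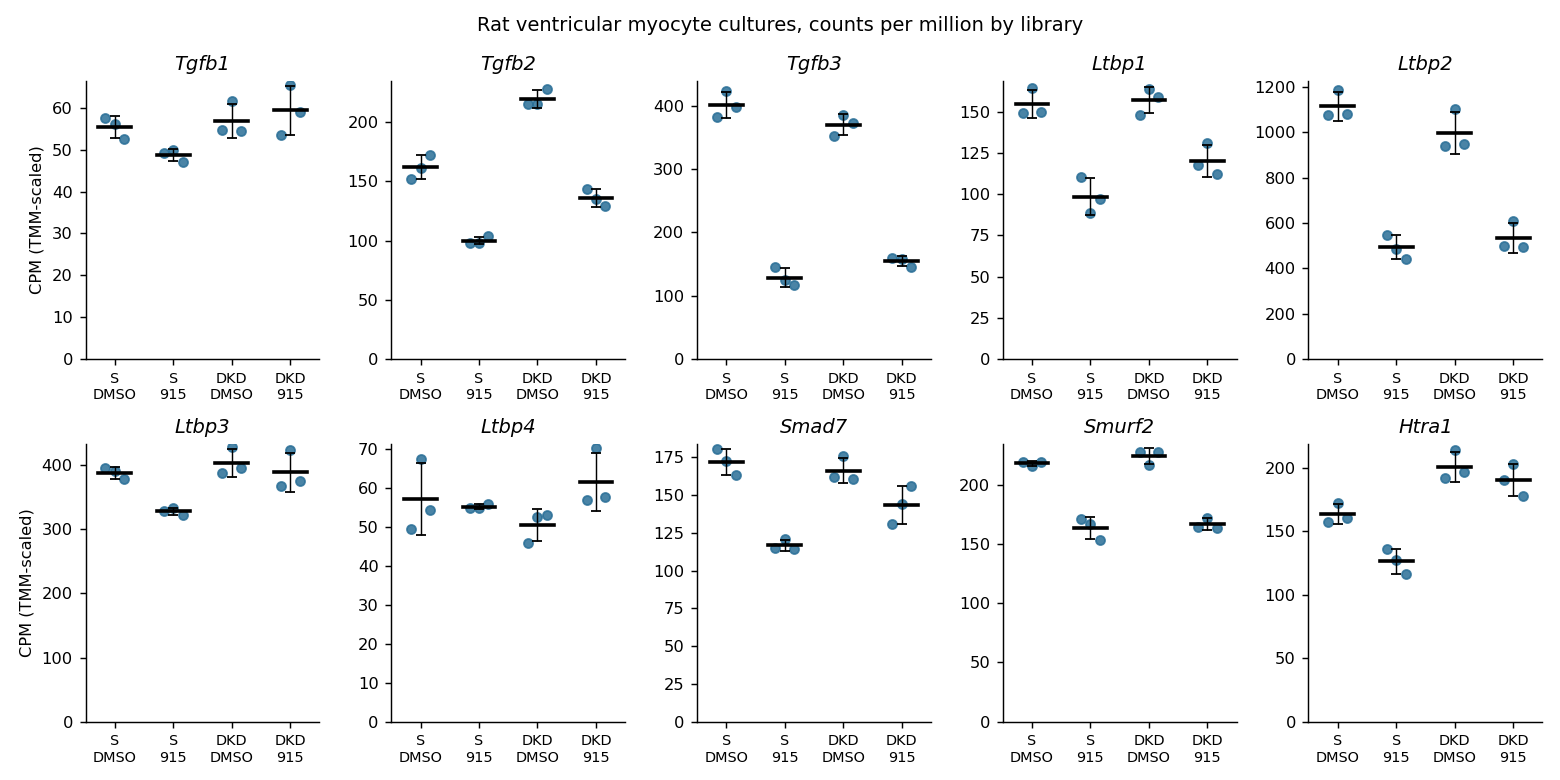
CPM (vertical axis, TMM-scaled) of the 10 genes in the 12 rat culture libraries, 1 panel per gene, by group (S, scramble siRNA; DKD, double knockdown of ERRalpha and ERRgamma). Points are libraries, horizontal lines are means and bars are SDs (n = 3); Tgfb3 drops from a mean of 402 CPM to 129 CPM with 915 in scramble cells, and Ltbp2 from 1116 to 493 CPM.

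The agonist 915 lowered 9 of the 10 genes in scramble cells, and raised none. Of the 15181 genes tested, 42.2% were called in this comparison, 20.6% lower and 21.5% higher. A gene counts as called where its adjusted p (edgeR's quasi-likelihood F-test, Benjamini-Hochberg over all genes tested) is under 0.05, and changes are given as log2 ± standard error. Over all 10 genes the median log2 change was -0.49, beside 0.01 over all genes tested. Ltbp4 alone was not called.

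Among the ligands, Tgfb3 stood at 382, 424 and 398 CPM in scramble DMSO libraries and at 146, 124 and 117 CPM with 915. Tgfb2, an isoform prominent in heart development, stood at 152, 162 and 172 CPM and at 98.3, 98.0 and 104 CPM. Neither gene's ranges overlapped, and the log2 changes were -1.64 ± 0.07 for Tgfb3 (adjusted p = 6.63e-14) and -0.70 ± 0.06 for Tgfb2 (adjusted p = 2.66e-10). Tgfb1, the isoform most often studied in fibrosis, stood at 57.6, 56.0 and 52.6 CPM and at 49.2, 50.0 and 47.1 CPM. Its groups were also separate, but the change was small, at -0.18 ± 0.07 (adjusted p = 0.0494). The Tgfb1 call was lost when scramble DMSO replicate 1 or 2, or any 1 of the 3 scramble 915 libraries, was left out (adjusted p = 0.0698 to 0.165), and in 3 of 6 other fits.

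Of the latent binding proteins, Ltbp2, a matrix protein that differs from its relatives in not binding latent TGF-beta covalently, stood at 1076, 1190 and 1082 CPM with DMSO. With 915 it stood at 549.5, 487 and 443 CPM, every library below every DMSO library, a change of -1.18 ± 0.10 (adjusted p = 4.37e-06). Ltbp1, which ties the latent complex to the matrix, changed by -0.65 ± 0.07 (adjusted p = 3.94e-07), from a mean of 155 to 98.6 CPM. Ltbp3, which helps latent TGF-beta to be secreted, changed by -0.24 ± 0.05 (adjusted p = 0.000667). Ltbp4, an organiser of elastic fibres, was at 49.5, 67.3 and 54.3 CPM with DMSO and at 54.9, 54.7 and 55.9 CPM with 915, groups that overlapped (-0.05 ± 0.10, adjusted p = 0.757).

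The 3 brakes fell along with the ligands. Smad7, the inhibitory SMAD that blocks the receptor and is itself induced by TGF-beta, stood at 180, 172 and 163 CPM with DMSO and at 115, 121 and 114 CPM with 915 (-0.56 ± 0.06, adjusted p = 4.63e-08). Smurf2, a ubiquitin ligase that works with SMAD7 to remove receptors, changed by -0.42 ± 0.05 (adjusted p = 2.05e-07). Htra1, a secreted serine protease reported to dampen TGF-beta signalling, changed by -0.37 ± 0.06 (adjusted p = 3.28e-05). All 3 had separate groups.

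In knockdown cells 915 lowered 6 of the 10 genes and raised 1, against 35.7% of tested genes called, 17.6% lower and 18.1% higher. Tgfb3 stood at 352, 385 and 372 CPM with DMSO and at 159, 159 and 146 CPM with 915, again with no overlap (-1.26 ± 0.07, adjusted p = 7.86e-12). Tgfb2 changed by -0.69 ± 0.05 (adjusted p = 4.26e-10), a value close to the -0.70 of scramble cells, and Ltbp2 by -0.90 ± 0.10 (adjusted p = 5.03e-05). Smurf2 likewise changed by -0.43 ± 0.05 (adjusted p = 2.24e-07).

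Ltbp1 was lowered by 915 in knockdown cells by -0.38 ± 0.07 (adjusted p = 0.000290) and Smad7 by -0.21 ± 0.06 (adjusted p = 0.00761). Ltbp4 rose from 45.8, 52.4 and 53.1 CPM to 56.8, 70.1 and 57.7 CPM (0.29 ± 0.10, adjusted p = 0.0371), with separate groups. The Smad7 call was lost without knockdown DMSO replicate 2 or knockdown 915 replicate 1 (adjusted p = 0.0620 and 0.0645). The Ltbp4 call was lost without knockdown DMSO replicate 1 or 2 or knockdown 915 replicate 2 (adjusted p = 0.0600 to 0.171). Tgfb1 (0.06 ± 0.07), Ltbp3 (-0.05 ± 0.05) and Htra1 (-0.08 ± 0.06) were not called.

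In knockdown cells the receptor transcripts were reduced but not absent. Esrra and Esrrg had means of 17.3 and 18.1 CPM with DMSO and 15.0 and 21.1 CPM with 915. Whether 915 acted differently in scramble and knockdown cells was tested as the difference of the log2 changes, scramble minus knockdown. It was called for 2 of the 10 genes, Tgfb3 and Smad7, both with a deeper fall in scramble cells, against 3.73% of tested genes called, 1.74% in that direction. The difference was -0.38 ± 0.09 for Tgfb3 (adjusted p = 0.0248) and -0.35 ± 0.08 for Smad7 (adjusted p = 0.0198). Neither holds against the loss of single libraries: leaving out each of the 12 libraries in turn, Tgfb3 stayed called in 4 fits and Smad7 in 7, with highest adjusted p of 0.0839 and 0.0736, and the libraries whose loss ended each call are given in the closing section. Htra1 missed the threshold at -0.29 ± 0.09 (adjusted p = 0.0656), and was called by DESeq2 (adjusted p = 0.0381). For Tgfb2 and Smurf2 the differences were -0.01 ± 0.08 and 0.01 ± 0.07 (adjusted p = 0.983 and 0.966).

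Knockdown alone, with DMSO, raised 2 of the 10 genes and lowered none, against 20.4% of tested genes called, 7.75% higher and 12.7% lower. Tgfb2 rose from the 152 to 172 CPM given above to 216, 215 and 228 CPM (0.44 ± 0.05, adjusted p = 8.23e-07). Htra1 rose from 157, 172 and 160 CPM to 192, 214 and 197 CPM (0.30 ± 0.06, adjusted p = 0.000716). For both genes every knockdown library was above every scramble library. The other 8 genes lay between -0.18 (Ltbp4) and 0.06 (Ltbp3) and were not called.

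With 915 present, knockdown raised 7 of the 10 genes, and lowered none, against 33.9% of tested genes called, 16.2% higher and 17.7% lower. This comparison shares its libraries with both 915 comparisons. Htra1 rose most, from 136, 127 and 116 CPM to 190, 202 and 178 CPM (0.59 ± 0.06, adjusted p = 4.23e-08), followed by Tgfb2 (0.44 ± 0.06, adjusted p = 6.11e-07). The other 5 that rose were Smad7 (0.30), Ltbp1 (0.29), Tgfb1 (0.29), Tgfb3 (0.26) and Ltbp3 (0.24), with adjusted p of 0.000344 to 0.00425. The Tgfb1 call was lost without knockdown 915 replicate 2 (adjusted p = 0.0576). Ltbp2, Ltbp4 and Smurf2 were not called. In the same comparison all 7 cardiomyocyte markers fell (summed level 19944 to 20799 CPM in scramble and 7348 to 9436 CPM in knockdown libraries), while 5 of 8 fibroblast and 6 of 8 smooth muscle and pericyte markers rose and none fell. The part of these shifts in the rises of the 7 genes was not tested.

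Other genes of the pathway were counted from 6 lists. Over all tested genes 20.6% were lower and 21.5% higher with 915 in scramble cells, and 17.6% and 18.1% in knockdown cells. Of 18 TGF-beta target genes, 13 fell with 915 in scramble cells and none rose, with a median log2 change of -0.97. They included Acta2 (smooth muscle actin, -1.28), Fn1 (fibronectin, -1.04) and Tagln (transgelin, -1.32). In knockdown cells 11 of 18 fell and 1 rose, with a median of -0.62, and Acta2 (-1.13), Fn1 (-0.73) and Tagln (-1.06) were again the 3 with the smallest adjusted p.

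Of 10 activators and microfibril anchors, 8 fell and 1 rose with 915 in scramble cells, among them Thbs1 (thrombospondin, which can activate latent TGF-beta, from 1153 to 337 CPM, -1.78), Fbn2 (fibrillin, -1.01) and the integrin subunit Itgav (-0.56). In knockdown cells 6 of the 10 fell, with Thbs1 at -1.55, Fbn2 at -1.09 and Itgav at -0.53. Of 7 BMP ligands and targets, a branch of the same superfamily, 6 fell in scramble cells and 4 in knockdown cells, including Bmp6 (-1.42 and -1.07) and Bmp4 (-1.22 and -0.94). Beside both lists, 20.6% of all tested genes fell in scramble cells and 17.6% in knockdown cells.

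Receptor and SMAD genes were called in both directions, beside 20.6% of all tested genes lower and 21.5% higher with 915 in scramble cells. Of 5 receptor genes, 2 fell with 915 in scramble cells, Eng (endoglin, -0.67) and Acvrl1 (-0.41), and Tgfbr3 (betaglycan, a co-receptor) rose by 0.17, a call lost without scramble DMSO replicate 2 or scramble 915 replicate 2 or 3. Of 6 SMADs and partners, 3 fell, namely the co-repressors Ski (-0.55) and Skil (-0.39) and the signal carrier Smad3 (-0.49), and 1 rose. Of 8 other inhibitors, 4 fell and 3 rose: the matrix proteoglycan Bgn fell by 0.85 and the decoy receptor Bambi rose by 0.51. With 915 present, knockdown raised 6 of the 18 target genes and lowered none, including Tgfbi (1.05) and Timp1 (0.88). In that comparison 16.2% of all tested genes were higher and 17.7% lower.

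Markers of other cells moved in the same cultures. The summed level of 8 fibroblast markers was 9890 to 10512 CPM in scramble DMSO libraries and 5477 to 5883 CPM with 915, and 9799 to 10568 CPM in knockdown DMSO libraries and 6649 to 8060 CPM with 915. That of 8 smooth muscle and pericyte markers was 5324 to 5636 CPM in scramble DMSO libraries and 2187 to 2648 CPM with 915, and 5450 to 6125 and 2809 to 3304 CPM in knockdown cells. No marker of either list was at 0. These sums do not hold for every marker. With 915, 5 of 8 fibroblast markers were called lower and 1 higher in scramble cells, and 4 lower and 1 higher in knockdown cells. Of 8 smooth muscle and pericyte markers, 6 were lower and none higher in scramble cells, and 6 lower and 2 higher in knockdown cells. Over all tested genes 20.6% were lower and 21.5% higher in scramble cells, and 17.6% and 18.1% in knockdown cells. Both lists hold genes counted above, Acta2 and Tagln in the smooth muscle list and Col1a1, Col1a2 and Dcn in the fibroblast list. The summed cardiomyocyte markers went from 15055 to 16590 CPM to 19944 to 20799 CPM with 915 in scramble cells, but from 9234 to 9623 CPM to 7348 to 9436 CPM in knockdown cells. Of the 7 cardiomyocyte markers, 3 were called higher and 1 lower in scramble cells (median log2 change 0.10), and 1 higher and 2 lower in knockdown cells. Endothelial markers (6 genes) summed to 24.5 to 28.5 CPM in scramble DMSO and 26.9 to 29.8 CPM in scramble 915 libraries, and to 33.8 to 35.7 and 43.1 to 45.6 CPM in knockdown libraries. Of 5 endothelial markers tested, 1 was called higher with 915 in scramble cells, and 3 higher and 1 lower in knockdown cells. Macrophage and leukocyte markers (7 genes) summed to 29.4 to 34.1 and 39.5 to 41.3 CPM in scramble cells and to 54.0 to 54.5 and 67.1 to 85.7 CPM in knockdown cells, and Adgre1 among them was at 0 in 6 of the 12 libraries. The part of these shifts in the falls of the 10 genes was not tested.

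**Figure D2:**
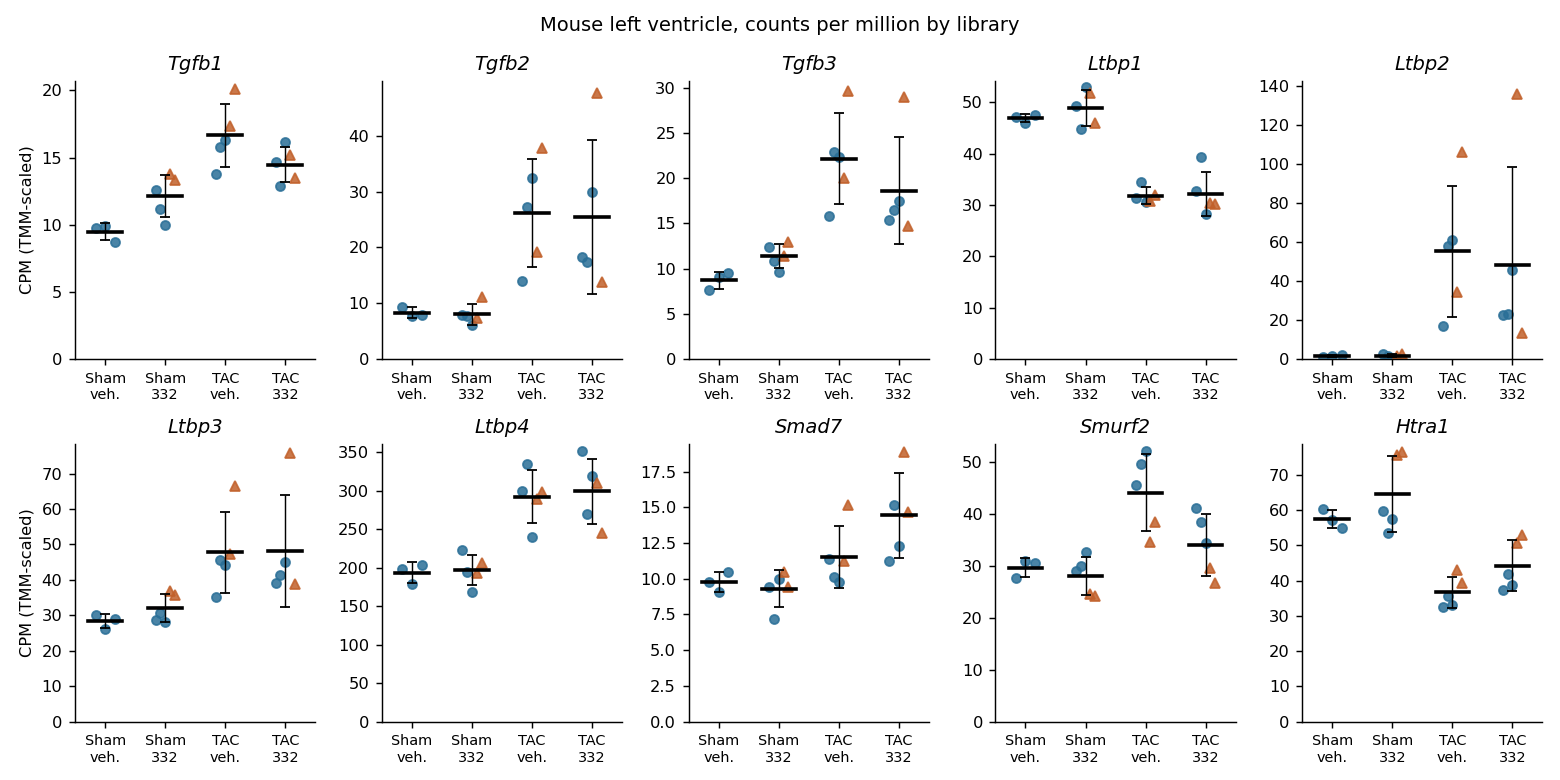
CPM (vertical axis, TMM-scaled) of the 10 genes in the 18 mouse left ventricles, 1 panel per gene, by group. Circles are hearts of the first sequencing set and triangles hearts of the second, horizontal lines are means and bars are SDs (cut off at 0 for Ltbp2); Ltbp2 lies at or below 2.33 CPM in all 8 sham hearts and at 13.6 CPM or more in all 10 TAC hearts.

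In the mouse heart, TAC raised 7 of the 10 genes and lowered 2 in vehicle-treated animals, against 26.4% of the 14047 genes tested, 13.5% higher and 12.8% lower. The median log2 change over the 10 genes was 0.66, beside -0.01 over all genes tested. With 332, TAC again raised 7 and lowered 2, against 23.8% of tested genes, 11.8% higher and 12.1% lower, with a median of 0.59. The fit carries a term for the sequencing set. TAC and sham hearts on vehicle are both present in the first set alone.

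Ltbp2 changed most of the 10 in both arms. It stood at 1.10, 1.65 and 1.93 CPM in sham vehicle hearts, or 14 to 26 counts per heart, and at 17.0, 57.9, 60.8, 34.4 and 106 CPM in TAC vehicle hearts. With 332 it stood at 2.33, 1.48, 0.441, 1.32 and 2.33 CPM after sham surgery and at 22.3, 22.8, 45.6, 136 and 13.6 CPM after TAC. Every TAC heart was above every sham heart, and the log2 changes were 4.74 ± 0.99 with vehicle (adjusted p = 0.00354) and 4.87 ± 0.79 with 332 (adjusted p = 0.000763). By level per length over protein-coding transcripts, Ltbp2 went from the lowest of the 10 genes in sham vehicle hearts to a mean of 4.87 TPM after TAC, second to Ltbp4 at 34.6 TPM, although its TAC hearts ranged from 0.948 to 12.9 TPM. Without coding transcripts under 1000 bases these means were 4.05 and 30.4 TPM, in the same places. Over all transcripts Ltbp2 ranked 4 of 10 in TAC vehicle hearts, at 4.93 TPM.

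Among the ligands, Tgfb2 stood at 9.40, 7.65 and 7.85 CPM in sham vehicle hearts and at 13.9, 27.3, 32.4, 19.2 and 37.9 CPM after TAC. Tgfb3 stood at 7.68, 9.04 and 9.48 CPM and at 15.8, 22.9, 22.4, 20.0 and 29.7 CPM. Both ligands were higher in every TAC heart, by 1.504 ± 0.43 (adjusted p = 0.0214) and 1.22 ± 0.21 (adjusted p = 0.000487). The Tgfb2 call was lost when any of the 3 sham vehicle hearts or TAC vehicle replicate 3 was left out (adjusted p = 0.0520 to 0.0787), with log2 changes of 1.31 to 1.60, and when only the groups compared were fitted (adjusted p = 0.0517).

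With 332, Tgfb2 stood at 7.89, 7.70, 6.09, 7.37 and 11.2 CPM after sham surgery and at 18.3, 17.4, 30.01, 47.7 and 13.8 CPM after TAC, with no overlap. The changes were 1.65 ± 0.35 for Tgfb2 (adjusted p = 0.00443) and 0.70 ± 0.17 for Tgfb3 (adjusted p = 0.00570). Tgfb1 rose with vehicle from 9.79, 9.91 and 8.74 CPM to 13.7, 15.8, 16.3, 17.4 and 20.1 CPM (0.74 ± 0.12, adjusted p = 0.000137). In 332-treated mice Tgfb1 was at 12.5, 11.2, 9.97, 13.8 and 13.3 CPM after sham surgery and at 14.7, 12.9, 16.1, 15.2 and 13.5 CPM after TAC, groups that overlapped (0.25 ± 0.10, adjusted p = 0.0566). The difference of the 332 effects for Tgfb1, TAC minus sham, was -0.48 ± 0.15 and was not called (adjusted p = 0.225).

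Ltbp3 and Ltbp4 rose in both arms. Ltbp4 stood at 198, 178 and 204 CPM in sham vehicle hearts and at 299, 335, 240, 289 and 298 CPM after TAC (0.61 ± 0.12, adjusted p = 0.000822). With 332 the Ltbp4 change was 0.60 ± 0.10 (adjusted p = 0.000215). Ltbp3 changed by 0.57 ± 0.18 with vehicle (adjusted p = 0.0267) and 0.58 ± 0.14 with 332 (adjusted p = 0.00857). The vehicle call for Ltbp3 was lost without any of the 3 sham vehicle hearts or TAC vehicle replicate 2 or 3 (adjusted p = 0.0604 to 0.105).

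Of the 10 genes, 2 fell after TAC. Ltbp1 stood at 47.1, 46.0 and 47.5 CPM in sham vehicle hearts and at 31.4, 34.5, 30.5, 30.7 and 32.0 CPM after TAC (-0.53 ± 0.09, adjusted p = 0.000189), and with 332 the change was -0.60 ± 0.07 (adjusted p = 1.10e-05). Htra1 stood at 60.2, 57.3 and 55.0 CPM and at 32.7, 35.6, 33.2, 43.1 and 39.3 CPM (-0.80 ± 0.07, adjusted p = 1.19e-07), and with 332 at -0.54 ± 0.06 (adjusted p = 1.60e-06). For both genes and in both arms, every TAC heart was below every sham heart. The Htra1 counts came mostly from transcripts annotated as not protein-coding: a median of 19.7% of its counts over the 18 hearts (range 0 to 28.3%) lay on protein-coding transcripts. When every gene was counted on protein-coding transcripts alone, the Htra1 calls were lost (-1.18, adjusted p = 0.230, with vehicle, and -0.48, adjusted p = 0.597, with 332).

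The same count of protein-coding transcripts moved Ltbp3, of whose counts a median of 41.7% (range 2.54 to 58.3%) lay there, to 2.31 with vehicle and 1.01 with 332 (adjusted p = 0.0931 for the latter). The vehicle value rests on few counts. The Ltbp3 coding transcript of 5190 bases had a mean of 44.0 counts in sham vehicle hearts, 11.5 ± 19.9% of the gene's counts (SD, n = 3). In TAC vehicle hearts its mean was 333 counts. For the other 8 genes the median share on protein-coding transcripts was 90.4% or more. This alternative was chosen after the data were seen.

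Among the brakes, Smurf2 rose with TAC in both arms, by 0.72 ± 0.08 with vehicle (adjusted p = 2.65e-06) and 0.27 ± 0.07 with 332 (adjusted p = 0.00471). With vehicle it stood at 27.6, 30.9 and 30.5 CPM after sham surgery and at 34.7 CPM or more in every TAC heart. With 332 the pooled groups overlapped, and the call was lost with no set term (adjusted p = 0.154) and on protein-coding transcripts alone (adjusted p = 0.0786). Smad7 stood at 9.79, 9.04 and 10.4 CPM in sham vehicle hearts and at 11.3, 10.1, 9.75, 11.2 and 15.1 CPM after TAC, which overlapped (0.11 ± 0.14, adjusted p = 0.609). With 332, Smad7 stood at 9.41, 7.15, 9.97, 10.5 and 9.45 CPM after sham surgery and at 11.2, 15.2, 12.3, 18.9 and 14.7 CPM after TAC, with no overlap (0.64 ± 0.11, adjusted p = 0.000473). The difference between the 332 effects after TAC and after sham surgery, the test that compares the arms, was 0.53 ± 0.18 and was not called for Smad7 (adjusted p = 0.273).

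**Figure D3:**
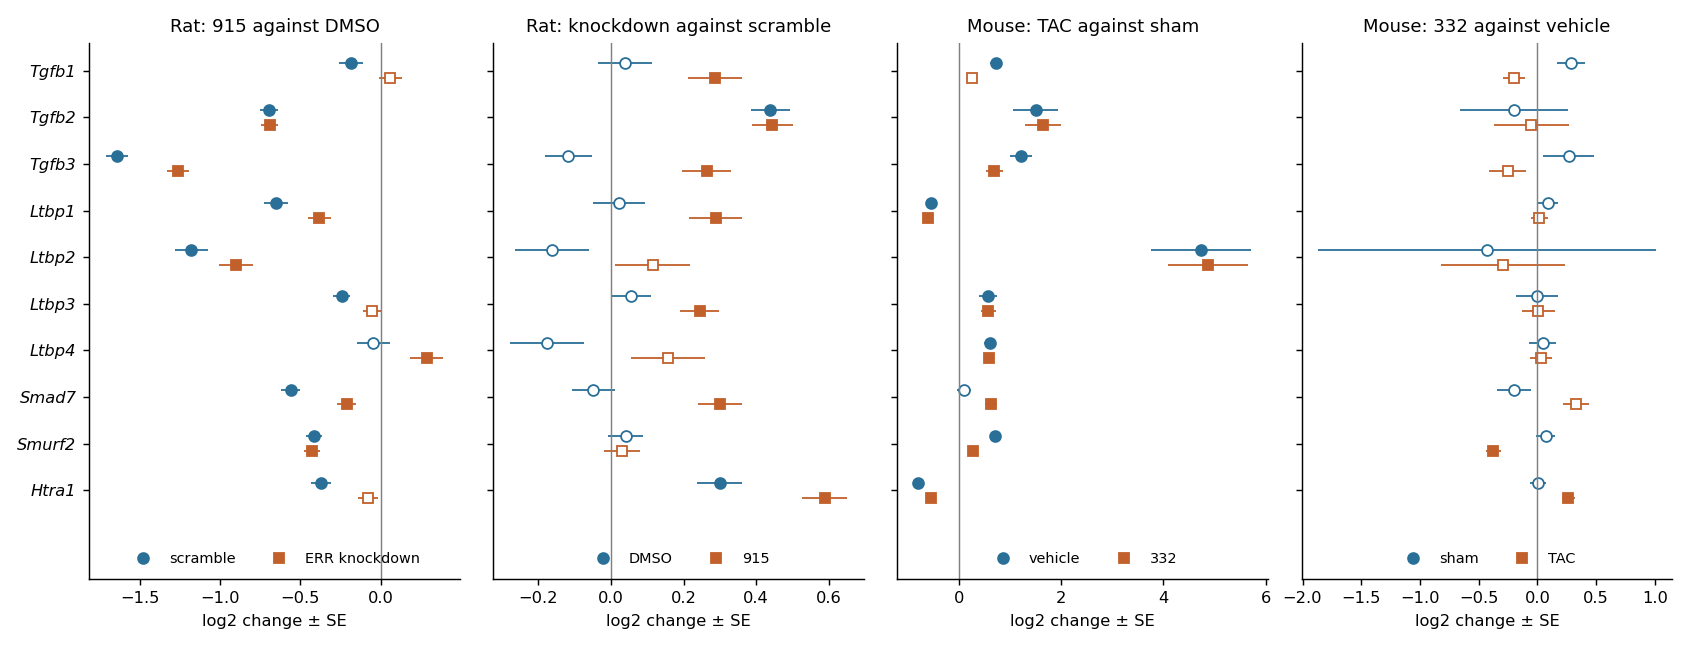
log2 changes with standard errors (horizontal axis) of the 10 genes in 8 comparisons, from the fits over all genes. Filled symbols have an adjusted p under 0.05 and open symbols do not; with 915 in scramble cells (first panel) 9 of 10 symbols are filled and lie below 0, and with 332 (last panel) Smurf2 and Htra1 in TAC hearts alone are filled.

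For several genes the same TAC hearts were at the ends of their group. TAC vehicle replicate 5 had the highest CPM for 6 of the 10 genes (Ltbp2, Ltbp3, Smad7, Tgfb1, Tgfb2 and Tgfb3) and replicate 1 the lowest for 6 (Htra1, Ltbp2, Ltbp3, Tgfb1, Tgfb2 and Tgfb3). Among TAC hearts on 332, replicate 4 was highest for 5 (Ltbp2, Ltbp3, Smad7, Tgfb2 and Tgfb3) and replicate 5 lowest for 6 (Ltbp2, Ltbp3, Ltbp4, Smurf2, Tgfb2 and Tgfb3), and both of these hearts are in the second sequencing set. The other genes had other hearts at the ends, such as Ltbp4, highest in vehicle replicate 2 and 332 replicate 1. The summed fibroblast markers were 1770 CPM in 332 replicate 4 and 1389 CPM in 332 replicate 5, the ends of that group, and 1673 and 1526 CPM in vehicle replicates 5 and 1, where replicate 2 was highest at 1776 CPM. Without 332 replicate 4, the TAC changes with 332 were 4.06 for Ltbp2 (adjusted p = 0.00160), 1.299 for Tgfb2 (adjusted p = 0.0154), 0.51 for Tgfb3 (adjusted p = 0.0121) and 0.40 for Ltbp3 (adjusted p = 0.0176).

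**Figure D4:**
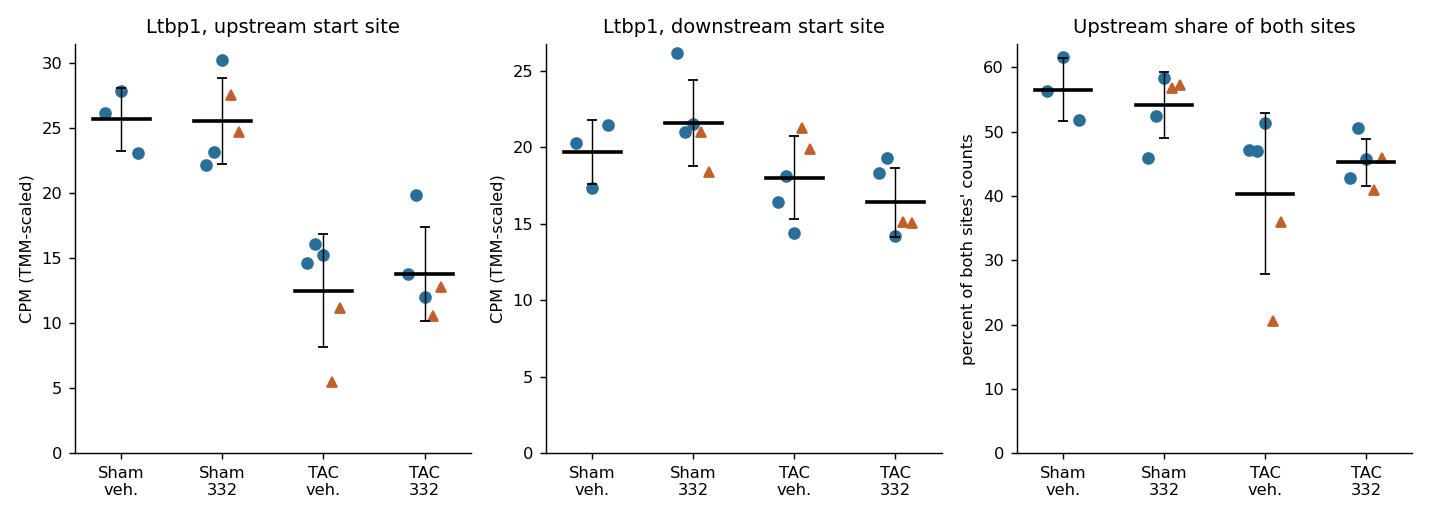
Ltbp1 transcripts from the upstream start site and from the downstream start site in CPM (TMM-scaled), and the upstream share in percent of both, in the 18 mouse hearts (circles, first sequencing set; triangles, second set; lines, means; bars, SDs). Upstream transcripts lie at 22.2 CPM or more in every sham heart and at 19.8 CPM or less in every TAC heart.

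Ltbp1 (chromosome 17, 75005568 to 75392512, plus strand, GRCm38) has an upstream start site, whose transcript encodes the long form with an extended amino-terminal end, and a downstream start site inside the gene, at 75178911, whose transcript encodes the short form. Upstream transcripts stood at 26.1, 27.8 and 23.0 CPM in sham vehicle hearts and at 14.6, 16.1, 15.2, 5.48 and 11.1 CPM after TAC. With 332 they stood at 22.2, 23.1, 30.2, 27.5 and 24.6 CPM after sham surgery and at 13.7, 19.8, 11.99, 10.5 and 12.8 CPM after TAC. Every TAC heart was below every sham heart in both arms. Downstream transcripts had means of 19.7 CPM (sham) and 17.999 CPM (TAC) with vehicle, and 21.6 and 16.4 CPM with 332.

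In two-sided exact permutation tests the upstream difference gave p = 0.0179 with vehicle and p = 0.00794 with 332, the smallest that 3 against 5 and 5 against 5 hearts allow, and the downstream difference p = 0.393 and p = 0.0159. Adjusted by Benjamini-Hochberg over the 12 start-site tests run, the smallest value was 0.0714, so none passed 0.05. With these group sizes no test could pass by itself over 12 tests, so the adjusted values cannot decide the upstream difference. The upstream share of both sites' counts was 56.6% in sham and 40.4% in TAC vehicle hearts (exact permutation p = 0.0893, adjusted 0.214), and these pooled values take no account of the sequencing set. In the first set, which holds all sham vehicle hearts, the TAC mean was 48.5%, and the TAC hearts of the second set stood at 20.5% and 35.9%. With 332 the shares were 54.1% and 45.2% (exact permutation p = 0.0238, adjusted 0.0714), and 52.2% and 46.4% in the first set. For upstream CPM the first-set means were 25.7 and 15.3 with vehicle. These tests were chosen after the transcript means had been seen, and the split of reads between overlapping transcripts is Salmon's estimate. For Ltbp4, 93.5% to 95.7% of counts (group means) lay on 1 transcript, which starts at base 27333663 of chromosome 7.

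The agonist 332 changed 2 of the 10 genes in TAC hearts, against 0.427% of tested genes called, 0.135% higher and 0.292% lower. Smurf2 stood at 45.7, 49.7, 52.1, 34.7 and 38.5 CPM in TAC vehicle hearts and at 41.1, 38.4, 34.4, 29.6 and 26.8 CPM in TAC hearts on 332. The groups overlapped when pooled. Within the first set the lowest vehicle heart (45.7 CPM) was above the highest on 332 (41.1 CPM), and within the second set the same held (34.7 against 29.6 CPM). The change was -0.37 ± 0.06 (adjusted p = 0.00756), at -0.37 in the first set and -0.38 in the second.

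Htra1 stood at 32.7, 35.6, 33.2, 43.1 and 39.3 CPM in TAC vehicle hearts and at 37.3, 41.8, 38.7, 50.6 and 53.0 CPM on 332. These groups too overlapped when pooled and were separate within each set (up to 35.6 against 37.3 or more, and up to 43.1 against 50.6 or more). The change was 0.26 ± 0.06 (adjusted p = 0.0381), at 0.22 in the first set and 0.33 in the second. Neither gene was called within a single set, with no set term, with only the groups compared or on protein-coding transcripts alone (Smurf2, adjusted p = 0.0551 and 0.0927 in the last 2), and the replicate block also ended the Htra1 call (adjusted p = 0.0863). Smurf2 stayed called when each of the 10 TAC hearts was left out in turn, and Htra1 in 3 of those 10 fits, its call ending without TAC 332 replicate 2, 3 or 5 or TAC vehicle replicate 1, 3, 4 or 5 (adjusted p = 0.0558 to 0.145).

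The other 8 genes were not called for 332 in TAC hearts. For Tgfb2 the change was -0.05 ± 0.32, for Tgfb3 -0.25 ± 0.16, for Tgfb1 -0.20 ± 0.09, for Ltbp2 -0.29 ± 0.53 and for Smad7 0.33 ± 0.11 (adjusted p = 0.196 to 0.972). Without TAC 332 replicate 4 the Ltbp2 value was -1.05 (adjusted p = 0.340) and the Tgfb2 value -0.39 (adjusted p = 0.586). The comparison shares its vehicle hearts with the vehicle TAC comparison, so the side-by-side values of Smurf2 (0.72 with TAC, -0.37 with 332) and Htra1 (-0.80 and 0.26) are not independent.

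In sham hearts 332 changed none of the 10 genes by edgeR, against 0.00712% of tested genes, with 1 of the 10, Tgfb1, at an unadjusted p under 0.05 and none called by DESeq2. Tgfb1 (8.74 to 9.91 CPM with vehicle, 9.97 to 13.8 CPM with 332) and Tgfb3 (7.68 to 9.48 and 9.62 to 12.9 CPM) had groups that did not overlap, with changes of 0.28 ± 0.12 (adjusted p = 0.981) and 0.27 ± 0.21 (adjusted p = 1.00). Whether 332 acted differently in TAC and sham hearts was called for none of the 10 by edgeR, against 0.0641% of tested genes (0.0214% higher and 0.0427% lower), with 4 at an unadjusted p under 0.05. Smurf2 came nearest, at -0.44 ± 0.10 (adjusted p = 0.107), and was the 1 gene of the 10 called by DESeq2 (adjusted p = 0.0218). DESeq2 called 80 of 13208 genes for this difference.

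Of the pathway lists, TGF-beta target genes rose with TAC in 10 of 17 tested in each arm and none fell, with medians of 2.02 with vehicle and 1.39 with 332. They included Postn (periostin, 3.79 with vehicle and 3.70 with 332), Col1a1 (1.99 and 1.51), Col3a1 (2.15 with vehicle) and Col1a2 (1.36 with 332). Over all tested genes 13.5% rose and 12.8% fell with TAC on vehicle, and 11.8% and 12.1% with 332. Of 10 activators and anchors, 5 rose and 1 fell in each arm, among them Thbs1 (3.98) and Fbn1 (2.14) with vehicle and Mfap5 (2.18) with 332, while Thbs2 fell by 0.88 and 0.72.

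Of 8 other inhibitors, 6 rose and 1 fell with vehicle and 5 rose with 332, including Pmepa1 (1.38 and 0.85), Bambi (0.89 and 1.03) and Bgn (1.78 and 1.70). For this and the next 3 lists too, the shares over all tested genes were 13.5% higher and 12.8% lower with vehicle. With 332 they were 11.8% and 12.1%. Of the 5 receptors, Tgfbr2 rose (0.28 and 0.27) and Tgfbr3 fell (-0.83 and -0.41). The Tgfbr2 call was lost with vehicle without sham vehicle replicate 2 or 3 or TAC vehicle replicate 2, 3 or 5, and with 332 without sham 332 replicate 3 or 4 or TAC 332 replicate 4. Of 6 SMADs and partners, Tgif1 (0.88) and Ski (0.31) rose with vehicle, 2 calls that became 0 without sham vehicle replicate 1 and 1 without replicate 2. With 332, Tgif1 (0.76) and Skil (0.51) rose and Smad3 fell (-0.47). Of 6 tested BMP ligands and targets none was called with vehicle by edgeR (median -0.15, none at an unadjusted p under 0.05 and none called by DESeq2), and Id3 alone rose with 332 (0.46). Of 52 tested genes over the 6 lists, none was called for 332 in TAC hearts by edgeR, with 9 at an unadjusted p under 0.05 and 1 called by DESeq2. Over all tested genes 0.427% were called by edgeR, so the absence of calls among 52 genes says little about these lists.

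Cell markers also moved in the hearts. The summed level of 8 fibroblast markers was 1183 to 1383 CPM in sham vehicle and 1526 to 1776 CPM in TAC vehicle hearts, and 1207 to 1381 and 1389 to 1770 CPM with 332. That of 8 smooth muscle and pericyte markers was 580 to 696 CPM in sham vehicle and 512 to 745 CPM in TAC vehicle hearts, and 547 to 650 and 469 to 682 CPM with 332. That of 7 macrophage and leukocyte markers was 119 to 158 CPM in sham vehicle and 160 to 222 CPM in TAC vehicle hearts, and 110.2 to 174 and 112 to 164 CPM with 332. With TAC, 5 of 8 fibroblast markers were called higher on vehicle and 4 on 332, and 1 of 8 smooth muscle and pericyte markers in each arm. Of 7 macrophage and leukocyte markers, 1 was called higher on vehicle and none on 332. No marker of these lists was called lower. Of 8 cardiomyocyte markers, 4 fell and 2 rose with TAC on vehicle and 5 fell and 1 rose with 332, and of 7 endothelial markers 2 and 1 rose. Over all tested genes 13.5% rose and 12.8% fell with TAC on vehicle, and 11.8% rose and 12.1% fell with 332. No marker was at 0 in any heart, and the part of these shifts in the changes of the 10 genes was not tested.

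For each ligand the 2 genes with the most similar pattern were taken as those with the smallest root mean square difference of log2 CPM, centred per gene. Over the 12 rat libraries these were Nov (0.06) and Fstl1 (0.08) for Tgfb3, Kctd11 (0.07) and Gria3 (0.08) for Tgfb2, and Ltbp3 (0.05) and Ctsf (0.06) for Tgfb1. Over the 18 mouse hearts, centred within each sequencing set, they were Prelp (0.11) and Carhsp1 (0.15) for Tgfb3, Serpinf1 (0.20) and Fstl1 (0.23) for Tgfb2, and Tpm4 (0.10) and Usp28 (0.10) for Tgfb1. The SDs of the ligands on that scale were 0.74, 0.41 and 0.13 in rat and 0.51, 0.87 and 0.27 in mouse for Tgfb3, Tgfb2 and Tgfb1.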

How the data were processed

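The 10 genes and the pathway and marker lists were chosen with earlier results of these data known. The rat values are counts per gene that the authors deposited beside FPKM values, made on build rn6 with featureCounts 1.5.0-p3 after HISAT2 2.0.5, with StringTie 1.3.3b and DESeq2 1.20.0 also named, per the submitters' processing notes, from unstranded libraries, per the labels' protocols. The mouse values are estimated counts per transcript that the authors deposited beside TPM values, per the file headers, made with fastp and Salmon, per the submitters' processing notes. The mouse genome build is not given in the sources used here. Estimated counts of 140790 transcripts were summed to genes and rounded, and 7.43% of the sums were not whole within 0.0005. TPM levels were summed over protein-coding transcripts, over all transcripts, and, added after seeing the data, over protein-coding transcripts of 1000 bases or more, since a short transcript can have a high TPM from few counts. FPKM and TPM were used for the order of levels alone. Mouse positions come from GENCODE M21 by gene identifier, and promoters from RefSeq GRCm38.p6.

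Genes were kept by filterByExpr (minimum count 10) and fitted with edgeR 4.0.16 in R 4.3.3 (TMM, robust quasi-likelihood F-test, Benjamini-Hochberg at 0.05): 12 rat libraries as 4 groups, and 18 mouse libraries as 4 groups with a sequencing-set term. Standard errors are the log2 change divided by the square root of F. The fit was tested on simulated data. No 2 libraries were identical. All 10 genes were described in every comparison. From the lists, up to 3 called genes with the smallest adjusted p were named per comparison. Genes of similar pattern were sought among those with an SD of at least 0.5 of the ligand's.

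Alternatives were RLE size factors, no and stricter low-count filters (minimum count 30 and 1 CPM), DESeq2 1.42.0, only the groups compared, a replicate block, each library left out, no set term, each set alone and, added after seeing the data, protein-coding transcripts alone.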

Additional observations from a re-analysis of the deposited data

Results flagged for a closer look

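TAC 332 replicate 4 stood apart from the other 4 hearts of its group for 3 genes: Ltbp2 (135.5 CPM), Ltbp3 (75.9 CPM) and Tgfb3 (29.0 CPM), each with a gap to the next heart that is large for a group of 5 by Dixon's 95% criterion. Groups of 4 or more were examined 30 times, with 3 such gaps, and chance gives about 1 in 20. The changes without this heart stand in the report.

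The response to 915 differed between scramble and knockdown cells for Tgfb3 (-0.38) and Smad7 (-0.35) by the test of the difference itself. The Tgfb3 call ended without scramble DMSO replicate 2 or 3, scramble 915 replicate 2 or 3, knockdown DMSO replicate 1 or 3, or knockdown 915 replicate 1 or 2. The Smad7 call ended without scramble DMSO replicate 1 or 2, scramble 915 replicate 3, or knockdown DMSO replicate 1 or 3.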

How the results depend on the processing

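Over 100 gene-by-comparison results and 1650 alternative values of them, no direction of a called gene turned, 68 values lost a call and 12 gained one. The values come from 165 alternatives over 10 comparisons, each read for the 10 genes, so they are not separate fits. The number of genes called for 332 in TAC hearts fell from 2 to 0 with only the groups compared, with no set term, with the first or the second set alone and with protein-coding transcripts alone, and to 1, Smurf2, with the replicate block. Over all genes, these settings in turn called 30 of 13329, 13 of 14047, 10 of 13694, 3 of 13869, 27 of 12675 and 40 of 14047. The main fit called 60 of 14047. For TAC with 332 the number among the 10 was 1 in the second set alone, which has 2 hearts per group. That fit called 52 of 13869 genes. The difference of the 332 effects was called for 1 of the 10 genes with no low-count filter and for 1 by DESeq2. Over all genes it was called for 521 of 26117 and 80 of 13208 in these 2 settings, against 9 of 14047 in the main fit. With each library left out in turn, the counts ran from 2 to 2 for knockdown with DMSO, 8 to 9 for 915 in scramble cells, 5 to 7 for 915 in knockdown cells, 6 to 7 for knockdown with 915, 0 to 4 for the difference of the 915 effects, 7 to 9 for TAC with vehicle, 9 to 10 for TAC with 332, 1 to 2 for 332 in TAC hearts, and 0 to 0 for 332 in sham hearts and for the difference of the 332 effects. Over all genes, those fits called 259 to 677 for the difference of the 915 effects, against 566 in the main fit. For 332 in TAC hearts they called 22 to 94, against 60. Deviations of same-numbered libraries had no correlation over 0.0758, which cannot settle whether the numbers pair samples. In the second mouse set, with 2 hearts per group, these correlations are forced into opposite values. Between TAC groups they were -0.2735 for same-numbered and 0.2735 for other hearts, so they say nothing about pairing. The replicate block called 3 of the 10 genes for the difference of the 915 effects, and 542 of 15181 genes tested. Ltbp2 rests on 5 to 32 counts per sham heart, which limits its fold change. With no low-count filter Ltbp2 was also called for 332 in TAC hearts (-0.30, adjusted p = 0.0166), though its change in the main fit was nearly the same (-0.29 ± 0.53, adjusted p = 0.878). Without the filter 671 of 26117 genes were called for this comparison, against 60 of 14047 in the main fit. The cause of these shifts was not tested.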
